A study of Homo sapiens with 7 samples.

Results

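The genes described here are 30 members of the Notch signalling pathway, read in 7 RNA-seq libraries of human embryonic stem cells (hESC) on the way to heart muscle. They were chosen by name as 5 ligands, 4 receptors, 11 modifiers, adaptors and nuclear partners, and 10 genes of the HES and HEY families and NRARP. All 30 are among the 23262 genes with values. Levels are FPKM, a read level corrected for transcript length and library size, and 21 of the 30 averaged at least 1 FPKM over the 7 libraries.

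Notch signalling passes between touching cells. A ligand of the Delta-like or Jagged family on one cell binds a NOTCH receptor on its neighbour, the receptor is cut by ADAM10 and then by gamma-secretase, and its freed intracellular part enters the nucleus. There it joins the DNA-binding protein RBPJ and a Mastermind coactivator (MAML), and HES and HEY genes, which encode transcriptional repressors, are switched on. In the mouse heart the pathway works between endocardium and myocardium during trabeculation and valve formation, and in people loss of JAG1 or NOTCH2 causes Alagille syndrome, which often includes heart defects.

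All cells came from the H3 hESC line with 2 reporters, eGFP for the early heart factor NKX2-5 and mCherry for alpha-MHC, the cardiac myosin encoded by MYH6. The number in the reporter's name counts upward from sample to sample in the labels, and the samples were treated as 1 line. The groups were undifferentiated hESC (day 0), CD13+/ROR2+ and CD13-/ROR2- cells of day 3, NKX2-5+ and NKX2-5- cells of day 7, and aMHC+ and aMHC- cells of day 14. Both day 7 and both day 14 groups are labelled CD13+/ROR2+, and both day 14 groups NKX2-5+. Each group is 1 library, so no difference has a replicate check and no test was possible.

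The labels were set beside marker genes. The day 3 CD13+/ROR2+ cells, labelled as mesoderm progenitor, had EOMES at 71.0 and MESP1 at 10.7 FPKM, against 14.9 and 1.84 in CD13-/ROR2-. T, a further early mesoderm gene, lay the other way, at 7.32 FPKM there against 18.7. The day 3 CD13-/ROR2- cells are labelled as endoderm progenitor, but SOX17, which marks endoderm, was 17.8 FPKM in the CD13+/ROR2+ library and 2.71 in this one. FOXA2, another endoderm gene, had 3.88 FPKM in the CD13+/ROR2+ library and 0.0874 in this one. The pluripotency gene POU5F1 had 11.2 FPKM in the CD13+/ROR2+ library and 64.8 in this one. The day 3 CD13-/ROR2- library is therefore called by its sort. MYH6 was 342 FPKM in day 14 aMHC+ and 136 in aMHC-. Depth in reads is unknown. Relative to hESC, the steps between low values gave depths between 0.599 (day 7 NKX2-5+) and 3.08 (day 14 aMHC-), and none that could be used for day 7 NKX2-5-. Day 7 NKX2-5+ also sits low as a whole. The typical gene stood at -0.43 on the log2 scale in it over day 7 NKX2-5-. Values after median-ratio scaling, which levels the typical gene, are given beside the deposited ones where this matters.

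The promoters of 4 HES and HEY genes are printed first, because RBPJ, through which Notch reaches its targets, binds the letters TGGGAA, and these are the letters to look for. On the opposite strand the motif reads TTCCCA. Each stretch holds the 250 bases before the RefSeq start in build GRCh38.p14, which is not the build of the expression files, and is written along the gene. They are HES1 (chr3:194135898-194136147, plus strand), HES4 (chr1:1000098-1000347, minus strand), HEYL (chr1:39639644-39639893, minus strand) and HES5 (chr1:2530264-2530513, minus strand). HES1, HES4 and HEYL are shown because their levels at days 7 and 14 carry much of what follows, and HES5 because it holds the motif while its transcript was almost absent. Capitals mark each match on either strand.
HES1: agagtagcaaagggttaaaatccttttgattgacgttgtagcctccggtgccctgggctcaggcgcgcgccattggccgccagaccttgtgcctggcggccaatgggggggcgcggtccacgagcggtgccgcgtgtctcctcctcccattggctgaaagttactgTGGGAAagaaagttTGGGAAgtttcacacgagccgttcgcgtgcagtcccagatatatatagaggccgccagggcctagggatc
HES4: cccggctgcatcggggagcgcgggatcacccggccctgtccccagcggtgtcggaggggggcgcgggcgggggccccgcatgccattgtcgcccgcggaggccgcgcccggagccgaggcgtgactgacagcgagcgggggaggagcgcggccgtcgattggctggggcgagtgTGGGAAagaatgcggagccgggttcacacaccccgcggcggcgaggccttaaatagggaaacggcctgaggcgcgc
HEYL: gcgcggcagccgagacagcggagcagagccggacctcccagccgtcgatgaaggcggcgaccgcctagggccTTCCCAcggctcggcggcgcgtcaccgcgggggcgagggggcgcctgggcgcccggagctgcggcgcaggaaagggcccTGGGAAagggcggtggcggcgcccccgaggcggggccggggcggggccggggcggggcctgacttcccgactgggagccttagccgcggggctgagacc
HES5: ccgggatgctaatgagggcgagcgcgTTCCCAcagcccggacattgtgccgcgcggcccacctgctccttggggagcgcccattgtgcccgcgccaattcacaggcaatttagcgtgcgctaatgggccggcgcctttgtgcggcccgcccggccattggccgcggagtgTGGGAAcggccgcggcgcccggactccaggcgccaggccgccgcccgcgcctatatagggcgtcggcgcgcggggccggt
HES1 holds matches at -84 and -70 relative to the start, HES4 at -76, HEYL at -178 and -99, and HES5 at -224 and -80. Of the 30 genes, 26 were matched in the RefSeq promoter table used. DLL1, DLL3, HEY1 and MFNG were not analysed here. The motif was within 250 bases before a start in 7 of them, among which were 5 of 9 HES, HEY and NRARP genes (HES1, HES4, HES5, HEY2 and HEYL), with LFNG and RBPJ itself. It was in 20.8% of all 35116 promoters, each counted singly, whereas a gene with several starts was counted if any of them held it. The longer GTGGGAA, which contains the shorter motif, was in 6 of the 26 (the same 5 HES and HEY genes and RBPJ) and in 5.43% of all. No promoter of the 3 ligands and 4 receptors found held either. A match is a run of letters and does not show binding.

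DLL3 led the ligands in day 3 CD13+/ROR2+, and JAG1 in the other 6 libraries. The 5 ligands summed to 8.63 FPKM in hESC, 19.1 and 6.93 in day 3 CD13+/ROR2+ and CD13-/ROR2-, 7.18 and 18.5 in day 7 NKX2-5+ and NKX2-5-, and 34.1 and 43.3 in day 14 aMHC+ and aMHC-. DLL3 made up 87.5% of the sum in day 3 CD13+/ROR2+. JAG1 made up 90.4% and 89.3% in day 7 NKX2-5+ and NKX2-5-, and 94.3% and 96.0% in day 14 aMHC+ and aMHC-. In hESC, JAG1 (41.8%) and DLL3 (38.3%) stood close together. In day 3 CD13-/ROR2-, JAG1 made up 44.8% and DLL3 29.7%.

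**Figure D1:**
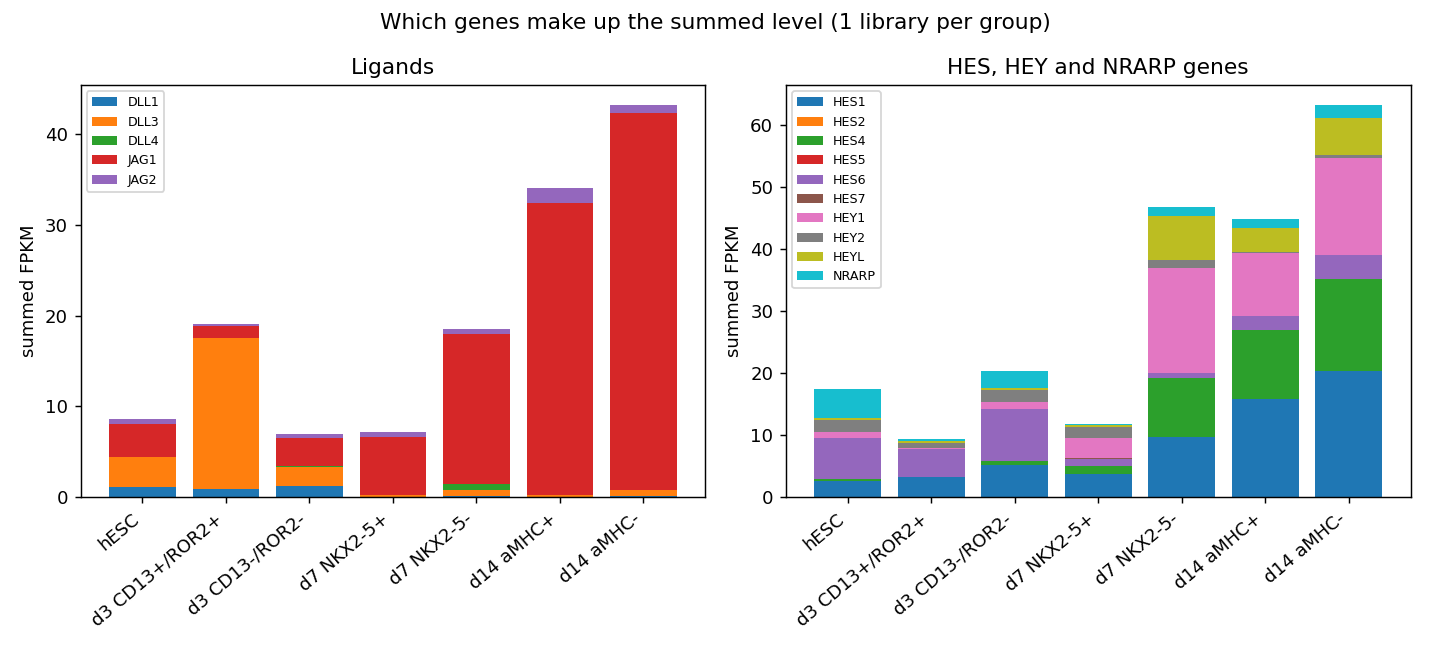
Stacked bars give the summed FPKM of the ligands (left) and of the HES, HEY and NRARP genes (right) in each library, 1 library per group and 1 colour per gene. DLL3 fills most of the ligand bar in day 3 CD13+/ROR2+ (16.7 FPKM) and JAG1 most of it at days 7 and 14, while HES6 is the tallest part of the right-hand bars in hESC and at day 3, and HES1, HES4 and HEY1 fill most of them at day 14.

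DLL3 encodes a divergent Delta-like protein that, in mouse, does not activate Notch on neighbouring cells. It was at 3.31 FPKM in hESC, 16.7 and 2.06 in day 3 CD13+/ROR2+ and CD13-/ROR2-, 0.186 and 0.712 in day 7 NKX2-5+ and NKX2-5-, and 0.227 and 0.603 in day 14 aMHC+ and aMHC-. Day 3 CD13+/ROR2+ stood above the rest, hESC was next, and all 4 libraries of days 7 and 14 were under 1 FPKM. The level in day 3 CD13+/ROR2+ was 8.09 times that in CD13-/ROR2- and 5.05 times that in hESC.

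JAG1, a Jagged ligand, ran the other way. It was at 3.61 FPKM in hESC, 1.31 and 3.11 in day 3 CD13+/ROR2+ and CD13-/ROR2-, 6.49 and 16.6 in day 7 NKX2-5+ and NKX2-5-, and 32.1 and 41.6 in day 14 aMHC+ and aMHC-. Its lowest library was day 3 CD13+/ROR2+, where DLL3 was highest, and both day 14 libraries were above all others. The remaining ligands were low. DLL1 reached 1.28 FPKM (day 3 CD13-/ROR2-), JAG2 1.67 (day 14 aMHC+) and DLL4, a ligand of arterial endothelium, 0.673 (day 7 NKX2-5-).

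NOTCH1, NOTCH2 and NOTCH3 were the receptors present, while NOTCH4, best known from endothelium, did not exceed 0.674 FPKM (day 7 NKX2-5-). The exons of NOTCH4 overlap GPSM3 on the same strand (1.13 to 4.41 FPKM), so NOTCH4 values are uncertain. The 4 receptors summed to 10.5 FPKM in hESC, 16.3 and 33.2 in day 3 CD13+/ROR2+ and CD13-/ROR2-, 7.50 and 36.1 in day 7 NKX2-5+ and NKX2-5-, and 20.4 and 31.2 in day 14 aMHC+ and aMHC-. Within each day, the fraction positive for the day's sort marker had the lower sum.

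NOTCH1 was at 3.59 FPKM in hESC, 3.66 and 8.70 in day 3 CD13+/ROR2+ and CD13-/ROR2-, 0.492 and 5.04 in day 7 NKX2-5+ and NKX2-5-, and 4.38 and 7.05 in day 14 aMHC+ and aMHC-. Day 7 NKX2-5+ was the single library under 1 FPKM. NOTCH3, a receptor of vascular smooth muscle and pericytes, was at 3.99 FPKM in hESC, 6.62 and 18.4 in day 3 CD13+/ROR2+ and CD13-/ROR2-, 2.83 and 14.0 in day 7 NKX2-5+ and NKX2-5-, and 7.54 and 13.3 in day 14 aMHC+ and aMHC-. It was lower in the positive than in the negative fraction on all 3 days.

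NOTCH2 was at 2.66 FPKM in hESC, 5.84 and 5.87 in day 3 CD13+/ROR2+ and CD13-/ROR2-, 4.06 and 16.4 in day 7 NKX2-5+ and NKX2-5-, and 8.40 and 10.6 in day 14 aMHC+ and aMHC-. Day 7 NKX2-5- was highest, and the day 3 fractions had nearly the same level, unlike those of NOTCH1 and NOTCH3. Its partial copy NOTCH2NL is listed at 1.47 to 7.08 FPKM and shares sequence with it, so NOTCH2 values are uncertain.

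**Figure D2:**
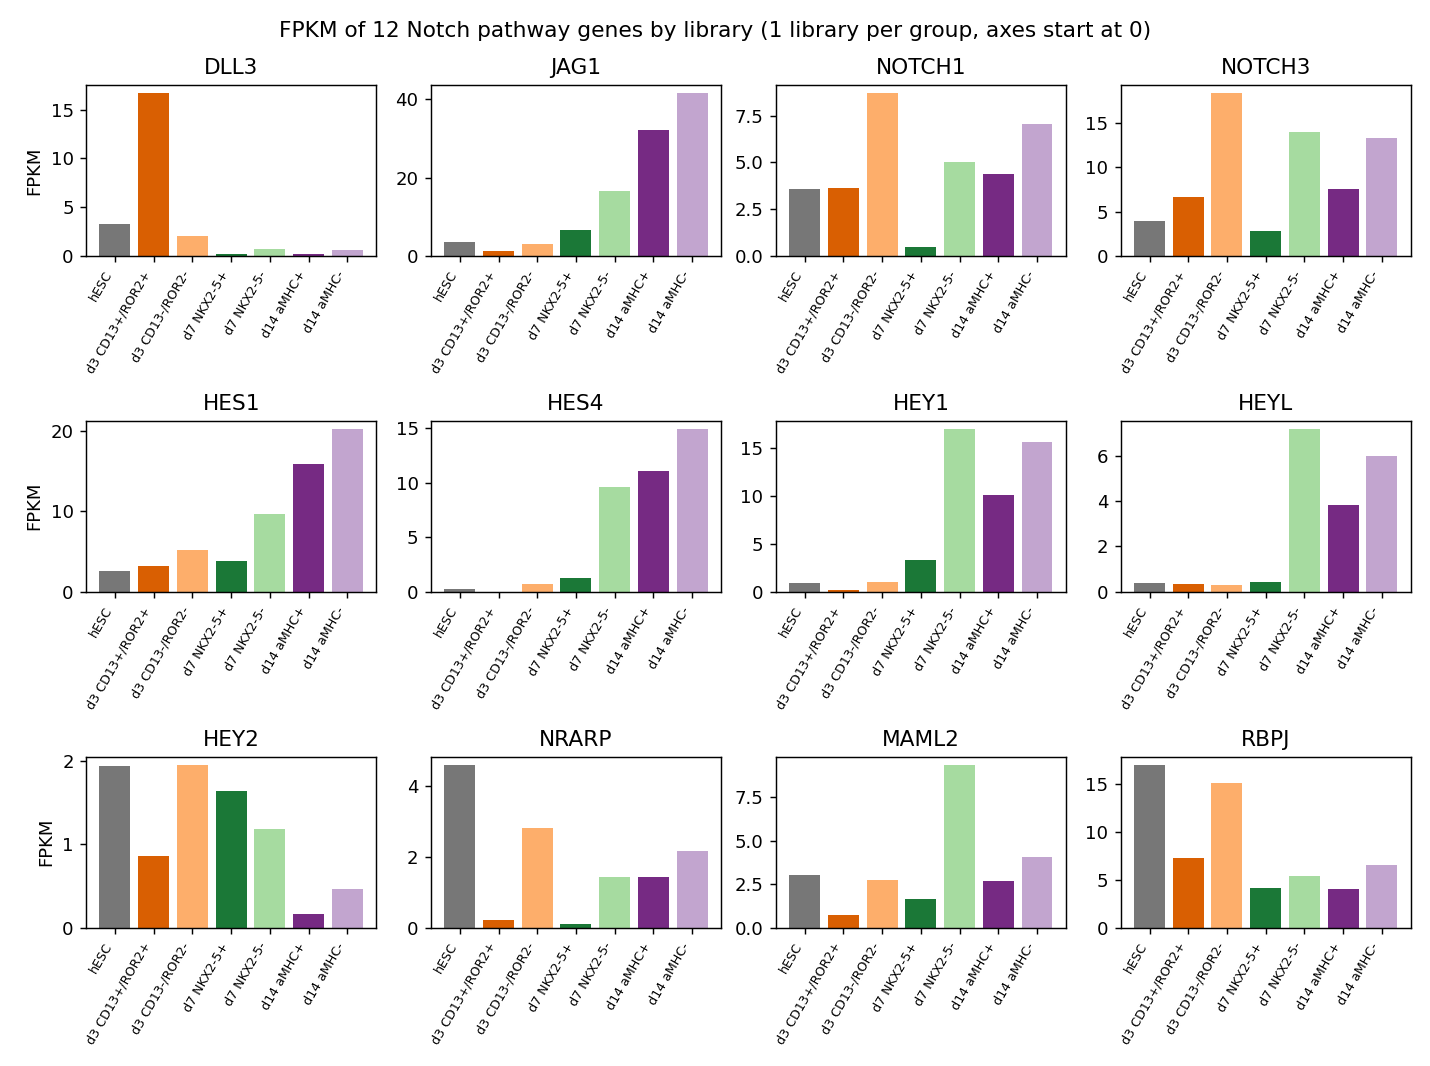
Bars give the FPKM of 12 Notch pathway genes in each library, 1 library per group, on axes that start at 0 and differ between genes. DLL3 peaks in day 3 CD13+/ROR2+ (16.7 FPKM), JAG1, HES1 and HES4 are highest in day 14 aMHC-, HEY1, HEYL and MAML2 in day 7 NKX2-5-, and NRARP and RBPJ in hESC.

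The HES, HEY and NRARP genes changed in make-up with time. They summed to 17.4 FPKM in hESC, 9.35 and 20.3 in day 3 CD13+/ROR2+ and CD13-/ROR2-, 11.8 and 46.8 in day 7 NKX2-5+ and NKX2-5-, and 44.8 and 63.4 in day 14 aMHC+ and aMHC-. HES6, whose mouse protein opposes HES1, and NRARP led in hESC, with 38.4% and 26.4% of the sum. HES1, HES4 and HEY1 made up 35.4%, 24.7% and 22.6% of it in day 14 aMHC+.

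HES1, a widely used readout of Notch activity, was at 2.58 FPKM in hESC, 3.19 and 5.15 in day 3 CD13+/ROR2+ and CD13-/ROR2-, 3.77 and 9.64 in day 7 NKX2-5+ and NKX2-5-, and 15.9 and 20.3 in day 14 aMHC+ and aMHC-. HES4, a family member that mice lack, was at 0.280 FPKM in hESC, 0 and 0.711 in day 3 CD13+/ROR2+ and CD13-/ROR2-, 1.22 and 9.62 in day 7 NKX2-5+ and NKX2-5-, and 11.1 and 14.9 in day 14 aMHC+ and aMHC-, where the 0 can be a failed estimate. Among the libraries of days 7 and 14, both genes followed the order of JAG1, with day 14 aMHC- highest and day 7 NKX2-5+ lowest.

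HEY1 was at 0.914 FPKM in hESC, 0.152 and 1.06 in day 3 CD13+/ROR2+ and CD13-/ROR2-, 3.33 and 17.0 in day 7 NKX2-5+ and NKX2-5-, and 10.1 and 15.6 in day 14 aMHC+ and aMHC-. HEYL, expressed in vascular smooth muscle in mouse, was at 0.392 FPKM in hESC, 0.341 and 0.301 in day 3 CD13+/ROR2+ and CD13-/ROR2-, 0.443 and 7.17 in day 7 NKX2-5+ and NKX2-5-, and 3.81 and 5.99 in day 14 aMHC+ and aMHC-. Both were highest in day 7 NKX2-5-, followed by day 14 aMHC- and aMHC+.

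HEY2 did not share this course. In mouse, HEY1 is a gene of atrial and HEY2 of compact ventricular muscle. HEY2 was at 1.93 FPKM in hESC, 0.858 and 1.95 in day 3 CD13+/ROR2+ and CD13-/ROR2-, 1.64 and 1.18 in day 7 NKX2-5+ and NKX2-5-, and 0.159 and 0.457 in day 14 aMHC+ and aMHC-. Its lowest levels were in the day 14 libraries, where HES1 and HES4 were highest.

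NRARP, whose small ankyrin-repeat protein limits Notch signalling, was at 4.59 FPKM in hESC, 0.225 and 2.80 in day 3 CD13+/ROR2+ and CD13-/ROR2-, 0.0911 and 1.43 in day 7 NKX2-5+ and NKX2-5-, and 1.42 and 2.17 in day 14 aMHC+ and aMHC-. It was under 1 FPKM in the positive fractions of days 3 and 7 and above 1 in the other 5 libraries. HES6 ranged between 0.763 FPKM (day 7 NKX2-5-) and 8.37 (day 3 CD13-/ROR2-). HES2, HES5, a target best known from neural progenitors, and HES7, an oscillating gene of the mouse presomitic mesoderm, did not exceed 0.166 FPKM in any library.

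**Figure D3:**
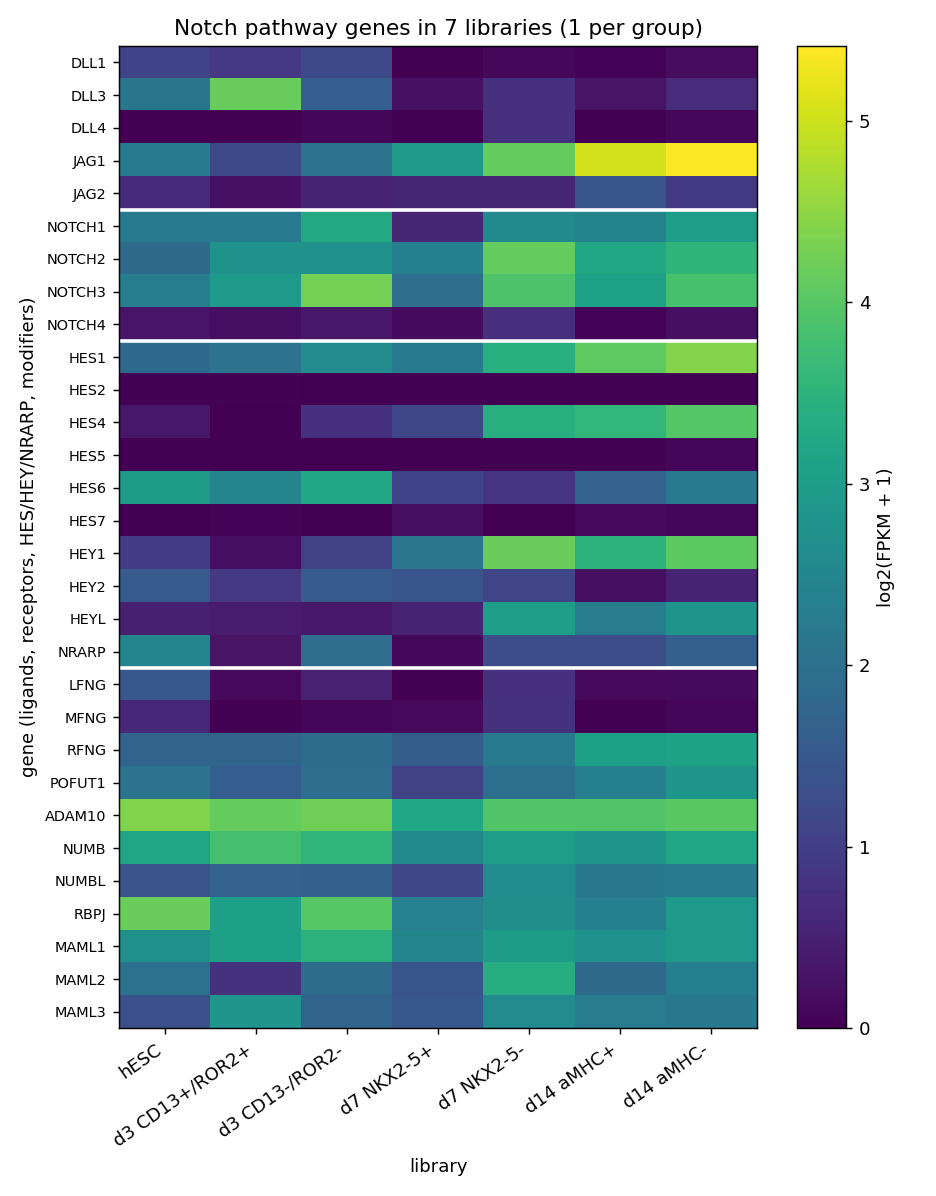
Colour gives log2(FPKM + 1) of the 30 genes (rows, grouped by role between white lines) in the 7 libraries (columns, 1 per group). The bright ligand cells lie at DLL3 in day 3 CD13+/ROR2+ and at JAG1 at day 14, while HES2, HES5 and HES7 stay dark throughout.

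Among the modifying and transmitting genes, the ratio of the highest to the lowest library was 2.21 for MAML1, 2.41 for ADAM10 and 2.64 for NUMB, against 13.0 for MAML2. ADAM10, which makes the first cut, ranged between 8.30 and 20.0 FPKM, NUMB, an endocytic inhibitor of Notch, between 4.93 and 13.0, and the coactivator gene MAML1 between 4.60 and 10.2. For each of these 3 the lowest deposited value was that of day 7 NKX2-5+. After median-ratio scaling NUMB (-0.26) and MAML1 (-0.26) were lower in day 14 aMHC+ than in day 7 NKX2-5+ on the log2 scale, and ADAM10 (0.16) was not. POFUT1, which adds O-fucose to the receptors, was at 1.10 FPKM in day 7 NKX2-5+ and 6.18 in day 14 aMHC-. NUMBL, a relative of NUMB, ranged between 1.22 FPKM in day 7 NKX2-5+ and 5.22 in day 7 NKX2-5- on the deposited values.

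RBPJ was at 17.0 FPKM in hESC, 7.30 and 15.1 in day 3 CD13+/ROR2+ and CD13-/ROR2-, 4.13 and 5.38 in day 7 NKX2-5+ and NKX2-5-, and 4.08 and 6.53 in day 14 aMHC+ and aMHC-. All 4 libraries of days 7 and 14 were lower than any earlier one. MAML2, another coactivator gene, was at 3.04 FPKM in hESC, 0.722 and 2.74 in day 3 CD13+/ROR2+ and CD13-/ROR2-, 1.64 and 9.36 in day 7 NKX2-5+ and NKX2-5-, and 2.65 and 4.03 in day 14 aMHC+ and aMHC-. Day 7 NKX2-5- exceeded every other library. MAML3 ranged between 1.51 FPKM (hESC) and 6.11 (day 3 CD13+/ROR2+), but its exons overlap those of MGST2 on the opposite strand, listed at up to 36.7 FPKM, and the library kit does not mark strand.

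The fringe genes encode sugar transferases that tune which ligands a receptor answers. LFNG was at 1.78 FPKM in hESC and did not exceed 0.705 elsewhere. MFNG did not exceed 0.733 FPKM. As deposited, RFNG ranged between 2.02 FPKM in day 7 NKX2-5+ and 7.68 in day 14 aMHC-. After median-ratio scaling day 7 NKX2-5+ was no longer its lowest library, with a log2 ratio of 0.34 over day 3 CD13+/ROR2+. The exons of RFNG overlap GPS1 on the opposite strand (18.8 to 36.5 FPKM), with which reads can be confused.

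The groups were then set against each other. A gene was called when log2 of the ratio of FPKM + 1 reached 2 in size, which is 4-fold, and its higher library held 5 FPKM or more. The 8 comparisons gave 15 calls among the 30 genes, on 7 of them (DLL3, JAG1, NOTCH1, HES4, HEY1, HEYL and MAML2). The share of all 11451 genes called, which average at least 1 FPKM, is given with each count, except in the check on processing. Counts and medians of the 30 also include those that average less. Comparisons that share a library are not independent of each other.

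At day 3, DLL3 was the single call in CD13+/ROR2+ over CD13-/ROR2-, with a log2 ratio of 2.53 (1 of 30 higher and 0 lower, beside 1.87% higher and 1.27% lower of all genes). Of the 30 genes, 22 had a lower value in CD13+/ROR2+, beside 47.4% of all genes. The median log2 ratio of the 30 was -0.27, beside 0.03 over all genes. NRARP was at 0.225 against 2.80 FPKM (log2 ratio -1.63), NOTCH3 at 6.62 against 18.4 (-1.34) and RBPJ at 7.30 against 15.1 (-0.96), none of which met the size rule. Pluripotency markers summed to 102 against 545 FPKM, with 3 against 5 of 5 genes at 1 FPKM or more and none listed at 0. Markers of presomitic mesoderm, where DLL3 is expressed in mouse, summed to 19.5 against 7.64 FPKM, with 2 against 3 of 6 genes at 1 FPKM or more and 1 against 2 listed at 0, and MESP2 alone was at 14.6 against 3.78. TCF15, at 0.211 against 1.91, and MSGN1, listed at 0 against 0.229, lay the other way. The part of these cell types in the result was not tested. In bulk samples fewer cells of a type and less RNA per cell cannot be told apart.

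In day 3 CD13+/ROR2+ over hESC, DLL3 was again the single call (1 of 30 higher and 0 lower, beside 2.27% and 1.29% of all genes). Its log2 ratio of 2.04 became 1.98 after scaling, short of a call, with 2.07% of all genes then higher. NRARP was at 0.225 against 4.59 FPKM, a log2 ratio of -2.19 that missed a call through the minimum of 5 FPKM. In day 3 CD13-/ROR2- over hESC no gene was called (0 of 30 higher and 0 lower, beside 0.69% and 0.585% of all genes). NOTCH3 came nearest, at 18.4 against 3.99 FPKM (1.96), followed by NOTCH1 at 8.70 against 3.59 (1.08).

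At day 7, NOTCH1, HES4, HEY1 and HEYL were lower in NKX2-5+ than in NKX2-5- (0 of 30 higher and 4 lower, beside 0.873% and 2.34% of all genes). The log2 ratios were -2.02 for NOTCH1, -2.26 for HES4, -2.06 for HEY1 and -2.50 for HEYL. After scaling they were -1.91, -2.04, -1.73 and -2.41, so that HES4 and HEYL kept the call (2 of 30 lower, beside 1.81% of all genes) and NOTCH1 and HEY1 did not. On the scaled values the median of the 30 genes was -0.64, beside -0.05 over all genes. Of the 30, 23 were lower in NKX2-5+, beside 53.9% of all genes. Among them were MAML2 (-1.71), NOTCH3 (-1.65), NOTCH2 (-1.44), NUMBL (-1.26) and NRARP (-1.17). HEY2 (0.57) lay on the other side. RBPJ changed sign, at -0.32 as deposited and 0.04 scaled.

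**Figure D4:**
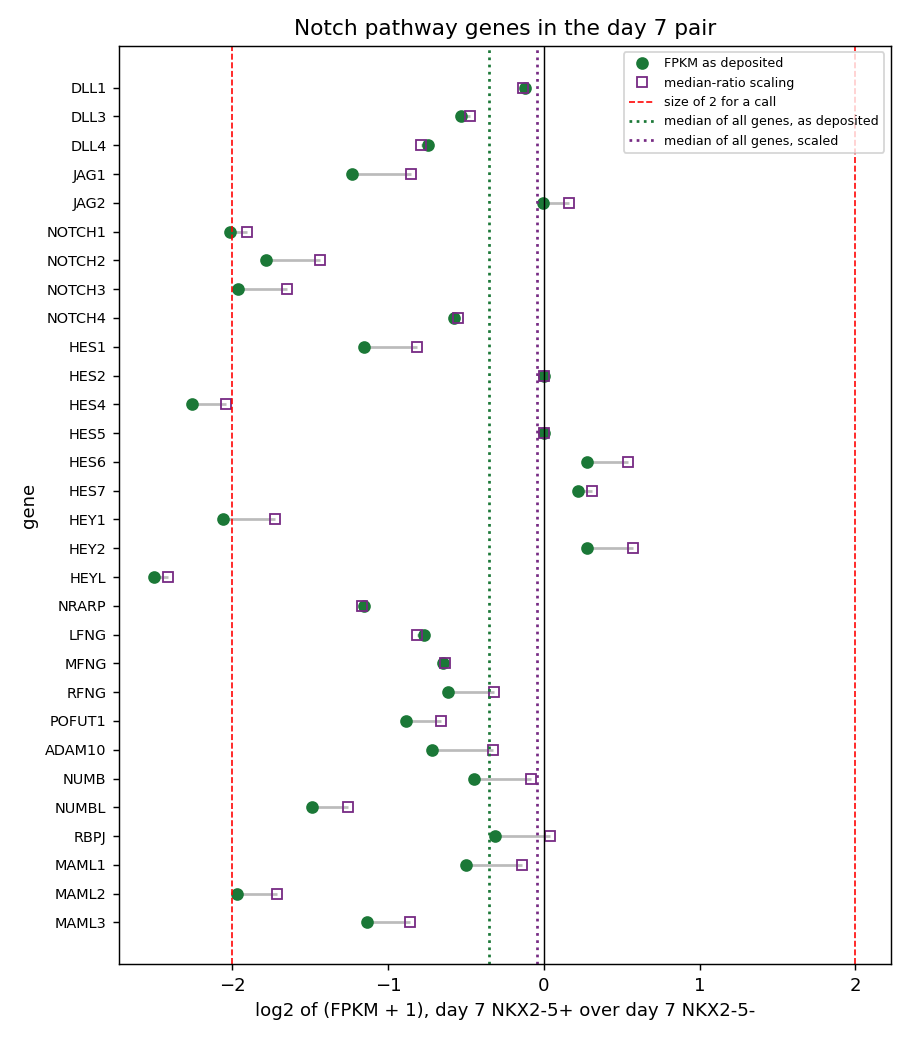
Each row is 1 gene, with its log2 ratio of (FPKM + 1) in day 7 NKX2-5+ over NKX2-5- as deposited (circles) and after median-ratio scaling (squares). Dashed lines mark a size of 2 and dotted lines the medians of all genes. NOTCH1, NOTCH2, NOTCH3, HES4, HEY1, HEYL and MAML2 lie farthest to the left, and HES6, HES7 and HEY2 lie to the right of 0 in both.

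Other cell types moved with the day 7 pair. In NKX2-5+ against NKX2-5-, endothelial and endocardial markers summed to 11.7 against 50.3 FPKM, with 4 against 11 of 11 genes at 1 FPKM or more and 1 against 0 listed at 0. CDH5 was at 1.01 against 6.17 and PECAM1 at 0.257 against 1.10, and CLDN5 was the marker listed at 0. Epicardial and fibroblast markers summed to 44.4 against 696 FPKM, with 3 against 8 of 8 genes at 1 FPKM or more and none listed at 0. Smooth muscle and pericyte markers summed to 507 against 627 FPKM, with 5 against 7 of 7 genes at 1 FPKM or more and none listed at 0. These 2 sums are as deposited, and the typical gene stood at -0.43 on the log2 scale in this pair, so their order is uncertain. Within that list PDGFRB was at 0.747 against 24.3 and TAGLN at 21.1 against 144, while ACTA2 at 456 against 421 and RGS5 at 8.73 against 7.89 were higher in NKX2-5+. Cardiomyocyte markers summed to 2581 against 572 FPKM, with 5 against 5 of 5 genes at 1 FPKM or more and none listed at 0, and endoderm markers to 20.1 against 147 FPKM, with 3 against 4 of 6 genes at 1 FPKM or more and 2 against 0 listed at 0. Their part in the levels of the Notch genes was not tested.

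In day 7 NKX2-5- over day 3 CD13+/ROR2+, JAG1, HES4, HEY1, HEYL and MAML2 were higher and DLL3 was lower (5 of 30 higher and 1 lower, beside 2.76% and 1.88% of all genes). HEY1 was at 17.0 against 0.152 FPKM (3.97), JAG1 at 16.6 against 1.31 (2.93) and MAML2 at 9.36 against 0.722 (2.59). HES4 was at 9.62 FPKM in NKX2-5- and listed at 0 in the day 3 library. HEYL had a log2 ratio of 2.61 and DLL3 of -3.37. The same 6 were called after scaling, beside 3.22% higher and 1.62% lower of all genes. The median of the 30 was then 0.60, beside 0.02 over all genes. Here endothelial markers summed to 50.3 against 10.8 FPKM, with 11 against 2 of 11 genes at 1 FPKM or more and 0 against 2 listed at 0. NFATC1, at 1.97 against 2.23, lay the other way. Smooth muscle and pericyte markers summed to 627 against 8.95 FPKM, with 7 against 3 of 7 genes at 1 FPKM or more and none listed at 0. Within that list ACTA2 alone was at 421 against 0.567. Epicardial and fibroblast markers summed to 696 against 12.6 FPKM, with 8 against 2 of 8 genes at 1 FPKM or more and none listed at 0. Cardiomyocyte markers summed to 572 against 11.4 FPKM, with 5 against 2 of 5 genes at 1 FPKM or more. Early mesoderm markers summed to 22.6 against 633 FPKM, with 2 against 6 of 6 genes at 1 FPKM or more. Endoderm markers summed to 147 against 30.7 FPKM, with 4 against 4 of 6 genes at 1 FPKM or more. SOX17, FOXA2 and HHEX of that list lay the other way. MESP1 was listed at 0 in NKX2-5- and TTR in the day 3 library. Their part was not tested.

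In day 7 NKX2-5+ over day 3 CD13+/ROR2+, DLL3 was lower, with a log2 ratio of -3.90 (0 of 30 higher and 1 lower, beside 2.15% and 4.44% of all genes). JAG1, at 6.49 against 1.31 FPKM, had a log2 ratio of 1.70 that became 2.26 and a call after scaling, with 3.45% of all genes then higher. HEY1 was at 3.33 against 0.152 (1.91) and NOTCH1 at 0.492 against 3.66 (-1.64). After scaling these log2 ratios were 2.36 and -1.33, and HEY1 then missed a call through the minimum of 5 FPKM. The median of the 30 was -0.01 after scaling, beside -0.02 over all genes. Cardiomyocyte markers summed to 2581 against 11.4 FPKM, with 5 against 2 of 5 genes at 1 FPKM or more and none listed at 0. Smooth muscle and pericyte markers summed to 507 against 8.95 FPKM, with 5 against 3 of 7 genes at 1 FPKM or more and none listed at 0. Within that list ACTA2 alone was at 456 against 0.567, and PDGFRB, at 0.747 against 1.36, lay the other way. Early mesoderm markers summed to 10.9 against 633 FPKM, with 2 against 6 of 6 genes at 1 FPKM or more and 3 against 0 listed at 0, and pluripotency markers to 8.82 against 102 FPKM, with 2 against 3 of 5 genes at 1 FPKM or more and 1 against 0 listed at 0. Their part was not tested.

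In day 14 aMHC+ over aMHC- no gene was called (0 of 30 higher and 0 lower, beside 0.323% and 0.175% of all genes). A lower value in aMHC+ was found for 27 of 30 genes, and for 70.3% of all genes. After scaling these were 22 of 30 and 49.5%, with a median of -0.14 over the 30. The scaled log2 ratios were -0.16 for JAG1, -0.13 for HES1, -0.20 for HES4, -0.38 for HEY1 and -0.55 for NOTCH3. Without replicates they cannot be set against a spread between samples. Cardiomyocyte markers summed to 4658 against 1747 FPKM, with 5 against 5 of 5 genes at 1 FPKM or more and none listed at 0. NKX2-5 among them, at 63.2 against 85.5, lay the other way. Epicardial and fibroblast markers summed to 331 against 679 FPKM, with 6 against 6 of 8 genes at 1 FPKM or more and none listed at 0. Most of that sum was COL1A1, at 130 against 256, and COL3A1, at 188 against 409. WT1, at 1.49 against 0.957, and DCN, at 1.97 against 1.44, lay the other way. Their part was not tested.

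In day 14 aMHC+ over day 7 NKX2-5+, JAG1 and HES4 were higher (2 of 30 higher and 0 lower, beside 3.56% and 0.376% of all genes). HES4 had a log2 ratio of 2.44, or 2.06 after scaling. JAG1 had 2.14, which became 1.59 and no call, with 1.83% of all genes then higher. With small RNA and histone genes left out and sums made equal, HES4 was 1.90 and JAG1 1.29, and neither was called. NOTCH1 (1.59 scaled), HEYL (1.49), HES1 (1.31) and NRARP (1.06) had higher values without a call, and HEY2 (-1.55) a lower one. Endothelial markers summed to 2.83 against 11.7 FPKM, with 1 against 4 of 11 genes at 1 FPKM or more and 3 against 1 listed at 0. KDR was at 1.11 against 5.68. PECAM1, CLDN5 and PLVAP were at 0 and CDH5 at 0.0494 in aMHC+, but CLDN5 was at 0 in day 7 NKX2-5+ as well. NFATC1, at 0.803 against 0.522, and TIE1, at 0.213 against 0.162, lay the other way as deposited. Smooth muscle and pericyte markers summed to 857 against 507 FPKM, with 7 against 5 of 7 genes at 1 FPKM or more and none listed at 0. All marker values here are as deposited, and the typical gene itself stood at 0.61 on the log2 scale in this pair. Within that list TAGLN was at 383 against 21.1, and ACTA2, at 348 against 456, lay the other way. Epicardial and fibroblast markers summed to 331 against 44.4 FPKM, with 6 against 3 of 8 genes at 1 FPKM or more and none listed at 0. COL1A1 was at 130 against 24.0 and COL3A1 at 188 against 14.4, and TBX18, at 0.219 against 0.754, lay the other way. Cardiomyocyte markers summed to 4658 against 2581 FPKM, and MYH6, at 342 against 531, and NKX2-5, at 63.2 against 70.2, lay the other way. The part of these cell types was not tested.

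Further genes of the pathway were read from a list of 53 symbols, of which 51 were matched, covering gamma-secretase, ubiquitin ligases, glycosyltransferases, nuclear cofactors and non-canonical ligands. None of the 51 was called in the day 3 pair, in either day 3 library over hESC, or in the day 14 pair. In day 7 NKX2-5+ over NKX2-5-, 2 of 51 were lower and 0 higher, beside 2.34% and 0.873% of all genes. DLK1, a Delta-like protein without the receptor-binding domain of the classical ligands, was at 7.35 against 134 FPKM, and MFAP2, a microfibril protein that binds Jagged in cell culture, at 3.57 against 24.8. In day 7 NKX2-5- over day 3 CD13+/ROR2+, 1 of 51 was higher and 0 lower, beside 2.76% and 1.88% of all genes, DLK1 at 134 against 1.37 FPKM. In day 7 NKX2-5+ over day 3 CD13+/ROR2+, 2 of 51 were lower and 0 higher, beside 4.44% and 2.15% of all genes. These were the Groucho-type corepressor genes TLE1, at 0.319 against 11.5 FPKM, and TLE3, at 1.13 against 12.7. In day 14 aMHC+ over day 7 NKX2-5+, 2 of 51 were higher and 0 lower, beside 3.56% and 0.376% of all genes. DLK1 was at 41.2 against 7.35 FPKM (log2 ratio 2.34) and MFAP2 at 21.3 against 3.57 (2.29). In this pair the typical gene itself stood at 0.61 on the log2 scale. Calls on the 51 genes are as deposited, and whether they hold after scaling was not tested.

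None of the 7 gamma-secretase and ADAM17 genes was called in any of the 8 comparisons. PSENEN, a gamma-secretase subunit, was highest at day 14, at 11.0 FPKM in aMHC+ and 8.63 in aMHC-.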

How the data were processed

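Total RNA of 7 samples was sequenced as single reads from TruSeq RNA v2 libraries, per the labels' protocols. The authors deposited 1 table of FPKM values. Cufflinks and hg19 come from the submitters' processing notes, and the sources used here name no versions, annotation or handling of multiply mapped reads. Of 23368 genes, 106 were blank and left out. A listed 0 can be a failed estimate, so no fold is given against it.

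Groups came from the labels. With 1 library each, no p-value or SD is given. Log2 ratios with a pseudocount of 1, which understate differences of low genes, were computed for 8 comparisons in Python 3.11.15 with pandas 2.3.3, with code checked on simulated data. Scaling used median ratios over 7780 genes above 1 FPKM in all libraries. The other alternatives were pseudocounts of 0.1 and 5, dropping the minimum FPKM, and equal sums after removal of 1691 small RNA and histone symbols. The 30 genes and all lists were chosen with earlier results of these data known. Genes past the size rule are given in all libraries. HES1, HEY2, NRARP, NOTCH2, NOTCH3, RBPJ and the further genes given with values were added after their values were seen. Promoters are from RefSeq. Exon overlaps, used for names alone, are from GENCODE on GRCh38.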

Additional observations from a re-analysis of the deposited data

Results flagged for a closer look

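For 2 genes the day 7 fractions lay on opposite sides of the day 3 CD13+/ROR2+ library by at least 0.5 on the log2 scale each. NOTCH3 was -0.99 in NKX2-5+ and 0.97 in NKX2-5-, a difference of -1.97. NUMBL was -0.55 in NKX2-5+ and 0.94 in NKX2-5-, a difference of -1.49. After median-ratio scaling NOTCH3 was -0.45 and 1.20, and NUMBL -0.13 and 1.13, so neither NKX2-5+ value reached 0.5 in size. The difference was not tested, since each group is 1 library. Both contrasts share the day 3 library, so each difference is that of the day 7 pair.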

How the results depend on the processing

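No call changed direction under any alternative tried. Of the 15 calls, 15 held with a pseudocount of 0.1 and with no minimum FPKM, 12 without small RNA and histone genes, 11 after median-ratio scaling and 2 with a pseudocount of 5, which shrinks ratios of genes at such low levels by construction. With a pseudocount of 0.1, 1 gene was higher in day 3 CD13-/ROR2- over hESC, 7 were lower in the day 7 pair, 1 was higher in day 7 NKX2-5+ over day 3 CD13+/ROR2+, and 3 were higher in place of 2 in day 14 aMHC+ over day 7 NKX2-5+. With a pseudocount of 5, 0 were higher in day 3 CD13+/ROR2+ over CD13-/ROR2- or over hESC, 0 lower in the day 7 pair, 1 higher and 0 lower in day 7 NKX2-5- over day 3, and 0 higher in day 14 aMHC+ over day 7 NKX2-5+. With no minimum, 1 was lower in day 3 CD13+/ROR2+ over hESC. After median-ratio scaling, 0 were higher in day 3 CD13+/ROR2+ over hESC, 2 lower in the day 7 pair, 1 higher in day 7 NKX2-5+ over day 3 and 1 higher in day 14 aMHC+ over day 7 NKX2-5+. Without small RNA and histone genes, 1 was lower in day 3 CD13+/ROR2+ over hESC, 2 were higher in day 7 NKX2-5+ over day 3 and 0 higher in day 14 aMHC+ over day 7 NKX2-5+, where HES4 and JAG1 lost their calls. In the day 7 pair HEY1 lost its call there (-1.73), which leaves 3 lower. No paired analysis was possible because each group is 1 library. Leaving out a replicate was not possible for the same reason. Depth limits genes under 1 FPKM, such as HES2, HES5, HES7, DLL4 and MFNG.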

Other observations

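Of 8 genes that lie downstream of Notch in the mouse heart, 1 was higher and 2 lower in day 7 NKX2-5+ than in NKX2-5- by the same size rule, beside 0.873% and 2.34% of all genes. TBX2, a gene of non-chamber muscle, was at 6.64 against 0.804 FPKM, EFNB2, an ephrin ligand of arterial endothelium, at 1.51 against 10.8, and SNAI2, a gene of epithelial-mesenchymal transition, at 2.66 against 24.0. In day 14 aMHC+ over day 7 NKX2-5+, EFNB2 was higher (18.0 against 1.51) and TBX20, a cardiac transcription factor gene, lower (11.1 against 141), 1 of 8 each way beside 3.56% higher and 0.376% lower of all genes. In day 3 CD13+/ROR2+ over CD13-/ROR2-, 3 of 8 were higher and 0 lower, beside 1.87% and 1.27% of all genes, SNAI2, BMP2, a bone morphogenetic protein ligand gene, at 30.8 against 1.30 FPKM, and TBX20 at 5.17 against 0.228. The same 3 were higher over hESC, where 2.27% of all genes were. In day 7 NKX2-5+ over day 3 CD13+/ROR2+, TBX20 and TBX2 were higher and SNAI1 and SNAI2 lower. That is 2 of 8 each way, beside 2.15% higher and 4.44% lower of all genes. In day 7 NKX2-5- over the same library TBX20 and EFNB2 were higher, 2 of 8 and 0 lower, beside 2.76% and 1.88%. The 8 genes were not split by whether Notch raises or lowers them. Their calls are on deposited values alone, in which day 7 NKX2-5+ sits low as a whole, and were not repeated after scaling. BMP10, a growth factor of trabecular muscle, was at 4.36 FPKM in day 14 aMHC+ and 2.19 in aMHC-, and no more than 1.28 in any earlier library.

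Among related helix-loop-helix genes, the proneural genes ATOH1, NEUROG1 and NEUROG2 did not exceed 0.164 FPKM in any library. ID1, ID3 and BHLHE40 were higher in day 14 aMHC+ than in day 7 NKX2-5+, at 247 against 7.40, 52.8 against 6.06 and 13.0 against 0.157 FPKM, 3 of 12 on that list beside 3.56% of all genes. ID1 and ID2 were lower in day 3 CD13+/ROR2+ than in CD13-/ROR2-, at 17.4 against 192 and 8.44 against 44.3 FPKM, 2 of 12 beside 1.27% of all genes.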
